A study of Danio rerio with 12 samples.

Results

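Open chromatin was described here on the sequences of the zebrafish assembly GRCz11 (danRer11) that lie outside chromosomes 1 to 25. Every called interval, counted once per start and end, was taken if its sequence was not one of the 25 chromosomes. This gave 43784 of 1189824 intervals over the 12 libraries, while 1146040 lay on the chromosomes. By sequence name, 24145 were on alternate-locus scaffolds (alt), 19358 on unplaced scaffolds (chrUn) and 281 on the mitochondrial genome (chrM), and 0 were of any other kind. A single library held between 2513 and 4239 of them, except MC_Het replicate 5 with 7692.

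An assembly keeps a sequence as unplaced when it could not be assigned to a chromosome, and such scaffolds are often rich in repeats and in copies collapsed into 1. An alternate-locus scaffold gives another haplotype of a region that is also on a chromosome, so a fish may carry the haplotype of the chromosome, of the alternate scaffold, of both or of neither. Mitochondrial DNA is not packed in nucleosomes, and the transposase of ATAC-seq cuts it readily. Reads were kept by the authors only at a mapping quality over 30. What this did to reads that fitted both a chromosome and an alternate scaffold depends on how the aligner treated such scaffolds, which is not stated.

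The study compared accessible chromatin of sorted melanocytes (MC) and melanoma cells (MA) from adult zebrafish by ATAC-seq, with up to 50000 cells per library. Melanocytes were sorted by mCherry from skin: the 3 MC_Het libraries were BRAFV600E/+, p53+/lf, mitfa+/- and the 1 MC_Homo library was BRAFV600E, p53lf/lf, mitfa+/-, all with the mitfa:mCherry transgene. Melanoma cells were sorted by GFP from tumours of BRAFV600E, p53lf/lf, crestin:EGFP fish (8 MA libraries). All groups thus carried human BRAFV600E, expressed from the melanocyte promoter of mitfa, and at least 1 mutant p53 allele, and the mCherry construct also carried a mitfa minigene. MC and MA came from different fish of different crosses, so a haplotype present in one set of fish and a difference of cell type cannot be told apart here. Sequencing run 2 held every MC library and MA replicates 4 and 5, and run 3 held MA replicates 6 to 11. Depth, solved from the peak statistics, was 6.05 to 24.62 M tags, and MC_Het replicate 5, the deepest, had a list of 274229 intervals against 60523 in the shortest.

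Intervals were found on 1637 scaffold and mitochondrial sequences, 911 alt and 725 chrUn. Every library had an interval on 372 of the alt sequences (40.8%) and on 235 of the chrUn sequences (32.4%). Only 1 library used 23 of the alt (2.52%) and 82 of the chrUn sequences (11.3%).

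The share of each list on unplaced scaffolds was 1.75% in MC_Het replicate 4, 1.58% in replicate 5, 1.72% in replicate 6 and 1.93% in MC_Homo. In MA it ran from 1.496% over a median of 1.59% to 1.69%, so that the groups overlapped only through MC_Het replicate 5. MC libraries averaged 1.75% ± 0.146 (SD, n = 4) and MA libraries 1.59% ± 0.065 (SD, n = 8), a difference of -0.16 percentage points (two-sided exact permutation p = 0.0162, adjusted p = 0.0196 over 34 tests of this kind). Without MC_Homo the difference was -0.0958 points and the exact permutation p 0.0848. Within MA the share was 1.67% in run 2 and 1.56% in run 3 (exact permutation p = 0.0357, adjusted p = 0.339 over 19 tests), and in run 2 alone MA minus MC was -0.0760 points (exact permutation p = 0.600). Alternate scaffolds showed the opposite order. Their share was 2.17%, 1.22% and 1.75% in MC_Het replicates 4, 5 and 6 and 2.35% in MC_Homo, against 1.91% to 2.70% with a median of 2.29% in MA. The mean rose from 1.87% ± 0.502 in MC to 2.35% ± 0.253 in MA (difference 0.474 points, exact permutation p = 0.0384, adjusted p = 0.0435). The call did not hold at equal list length, where the 60523 strongest intervals of each library gave a difference of 0.0124 points (exact permutation p = 0.968). It was also lost without any 1 of MC_Het replicates 5 and 6 and MA replicates 4, 6, 7 and 8, the smallest difference being 0.255 points without MC_Het replicate 5. Over all these sequences together the share was 3.64% ± 0.651 in MC and 3.96% ± 0.295 in MA (exact permutation p = 0.267).

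**Figure D1:**
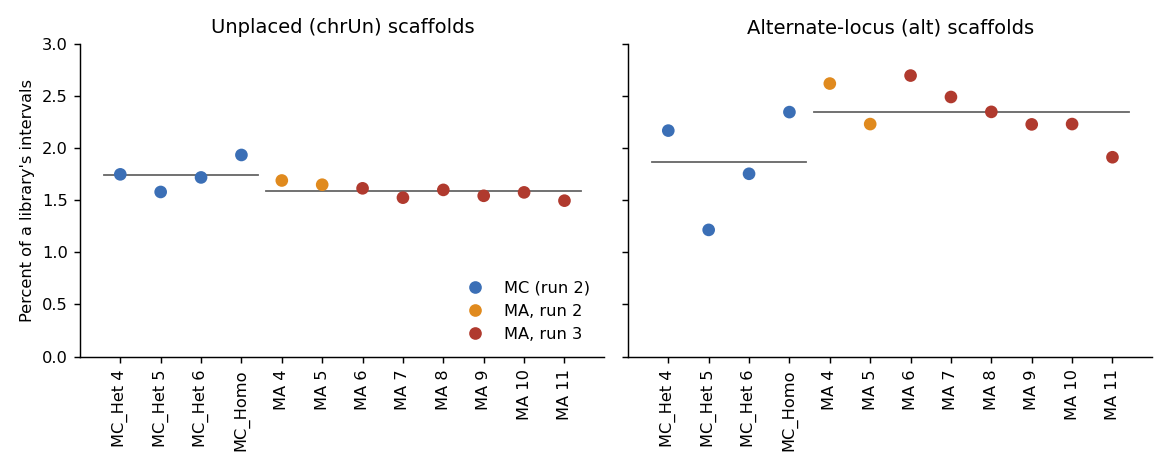
Percent of each library's intervals on unplaced scaffolds (left) and alternate-locus scaffolds (right), 1 point per library, with grey lines at the means of MC (n = 4) and MA (n = 8). On unplaced scaffolds MC_Homo is highest at 1.93%, and on alternate scaffolds MC_Het replicate 5, the deepest library, is lowest at 1.22%.

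Intervals on alternate scaffolds differed in shape from those on the chromosomes of the same library. Many were 119 to 121 bp wide. This narrow class held 52.2%, 29.6% and 45.7% of alt intervals in MC_Het replicates 4, 5 and 6 and 53.0% in MC_Homo. On the chromosomes of the same libraries it held 24.4%, 7.83%, 17.3% and 26.8%. In MA it held 9.94% to 31.5% of alt intervals (median 15.5%) and 5.19% to 15.5% of chromosome intervals (median 6.81%). The alt share was higher than the chromosome share in 12 of 12 libraries, by 14.9 percentage points on average (two-sided exact sign-flip permutation p = 0.000488, adjusted p = 0.00299). The excess was 26.02 ± 3.02 points in MC and 9.33 ± 4.16 points in MA, with no overlap, and the difference between the cell types was -16.7 points (exact permutation p = 0.00202, the smallest that 495 splits can give, adjusted p = 0.00299). The chromosome share itself was 19.1% ± 8.52 in MC and 8.36% ± 4.25 in MA. The excess is in points and is not scaled to that level. In relative terms the libraries of the 2 cell types overlapped. The share rose from 26.8% to 53.0% in MC_Homo and, by a larger factor, from 14.8% to 31.5% in MA replicate 5. Within MA the excess was 14.2 and 16.7 points in the 2 libraries of run 2 and 4.75 to 9.27 points in run 3. The runs thus did not overlap either, but the difference did not pass after adjustment (run 3 minus run 2 -8.17 points, exact permutation p = 0.0357, adjusted p = 0.339 over 19 tests). Within run 2 the excess still differed by -10.6 points between MA and MC, with an exact permutation p of 0.0667, the smallest that 15 splits allow. Unplaced scaffolds differed from the chromosomes in narrow share by 0.366 points (exact sign-flip permutation p = 0.131), with libraries on both sides of 0.

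Median widths were also smaller on alternate scaffolds than on the chromosomes, but here the contrast was larger on average in MA. On alternate scaffolds the median width was 119 to 121 bp in the 4 MC libraries and 122 to 152 bp in MA, whereas on the chromosomes it was 119 to 143 bp in MC and 139 to 182 bp in MA. The alt median was below that of the chromosomes in 11 of 12 libraries, with a mean difference of -18.5 bp (exact sign-flip permutation p = 0.00146, adjusted p = 0.00299). The shortfall was larger in MA, at -24.8 ± 6.89 bp, than in MC, at -6.00 ± 10.7 bp (exact permutation p = 0.00808, adjusted p = 0.0106). In MC_Het replicates 4 and 6 and MC_Homo the chromosome median was itself 119 to 122 bp, and the difference was -2 to 1 bp. MC_Het replicate 5, with a chromosome median of 143 bp, had a difference of -22 bp, within the MA range of -33 to -13 bp. A larger shortfall in MA is thus not shown for MC libraries with wider chromosome intervals. Unplaced scaffolds also had narrower intervals, with a mean difference in median width of -6.79 bp (exact sign-flip permutation p = 0.0107, adjusted p = 0.0135). It was -16.0 to -3.00 bp in the 8 MA libraries, and 1.5, -1 and 3 bp in MC_Het replicates 4, 5 and 6 and 1 bp in MC_Homo (difference between the cell types -11.9 bp, exact permutation p = 0.00404, adjusted p = 0.00572).

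The fold enrichment, the tag pileup at the summit plus 1 over the local background plus 1, was higher on alternate scaffolds. The median fold there was 10.1, 6.07 and 9.21 in MC_Het replicates 4, 5 and 6 and 10.4 in MC_Homo, against 5.61, 3.86, 5.33 and 6.02 on the chromosomes. In MA the alt medians were 6.23 to 8.40 and the chromosome medians 4.99 to 7.46. On the log2 scale the alt excess was 0.43 over all libraries and above 0 in 12 of 12 (exact sign-flip permutation p = 0.000488, adjusted p = 0.00299). It was 0.77 ± 0.08 in MC and 0.26 ± 0.11 in MA, and every MC value, from 0.65 up, lay above every MA value, the highest of which was 0.45. The difference was -0.51 (exact permutation p = 0.00202, adjusted p = 0.00299). Run 2 alone gave -0.48 (p = 0.0667, exact permutation, again the smallest possible). With the pileup in place of the fold the alt excess was 0.32 on the log2 scale over all libraries, and most of it lay in MC. The median pileup averaged 17.75 tags on alt and 10.5 on the chromosomes in MC, against 13 and 12.25 in MA. In MA replicates 4, 6 and 7 the alt pileup was not above that of the chromosomes. On unplaced scaffolds the log2 fold differed from that of the chromosomes by 0.01 over all libraries (exact sign-flip permutation p = 0.762), with a mean of 0.12 ± 0.04 in MC and -0.05 ± 0.05 in MA (difference -0.17, exact permutation p = 0.00202, adjusted p = 0.00299).

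**Figure D2:**
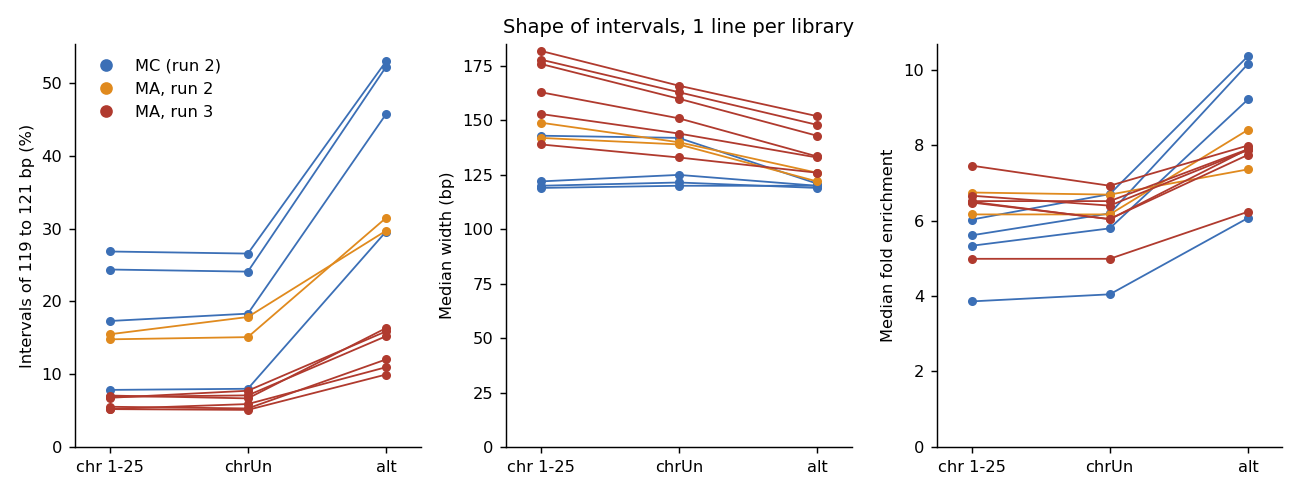
Percent of intervals 119 to 121 bp wide, median width in bp and median fold enrichment on chromosomes 1 to 25, unplaced scaffolds and alternate scaffolds, with 1 line per library, coloured by cell type and run. The narrow share rises from the chromosomes to the alternate scaffolds in all 12 libraries, by most percentage points in the MC libraries, whose chromosome share is also higher on average. On unplaced scaffolds the median width is below that of the chromosomes in the 8 MA libraries.

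The local background separated the kinds of scaffold. Intervals whose background exceeded 2 times the genome-wide level of their library made up 1.05% to 3.59% of alt intervals in MC and 1.72% to 4.21% in MA. On the chromosomes they made up 2.35% to 7.85% in MC and 10.2% to 23.7% in MA. Alt intervals were thus below the chromosomes in 12 of 12 libraries, with a mean difference of -3.35 ± 1.38 points in MC and -16.1 ± 3.83 points in MA (difference between them -12.7, exact permutation p = 0.00202, adjusted p = 0.00299). The means behind this were 2.24% ± 1.05 in MC and 2.91% ± 1.01 in MA on alt, and 5.59% ± 2.32 in MC and 19.01% ± 4.49 in MA on the chromosomes. Unplaced scaffolds were above the chromosomes in 11 of 12 libraries, by 7.73 ± 2.62 points in MC and 2.14 ± 1.31 in MA (difference -5.58, exact permutation p = 0.00202, adjusted p = 0.00299). The level on unplaced scaffolds was itself higher in MA, at 21.15% ± 4.16, than in MC, at 13.3% ± 4.92.

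A few scaffolds carried a background far above the rest of the genome. Among sequences with intervals in at least 10 libraries, 8 scaffolds had a median background over 5 times the genome-wide level. The highest was chrUn_KN149687v1, the scaffold with most intervals in all, 858 over the 12 libraries and 59 to 87 in each, spread over 161.8 kb. Its background was 118, 110 and 121 times the genome-wide level in MC_Het replicates 4, 5 and 6 and 126 times in MC_Homo. In MA it was 64.7 to 100 times, with a median of 81.1, so that every MA library lay below every MC library. The genome-wide level counts mitochondrial tags, estimated at 3.44% ± 1.46 in MC and 9.81% ± 1.69 in MA. These multiples are not scaled to nuclear tags. The closest libraries were MC_Het replicate 5, at 110 times, and MA replicate 11, at 100 times. Their estimated mitochondrial tags were 2.62% and 12.2%. Scaled to nuclear tags by these estimates, MA replicate 11 did not lie below MC_Het replicate 5, so full separation does not hold per nuclear tag. The difference of means of the unscaled multiples was -39.0 (exact permutation p = 0.00202, adjusted p = 0.00299). Run 2 alone gave -34.6, where the exact permutation p could not fall below its value of 0.0667. Scaled by the span of 161.8 kb, the median background corresponds to an estimated 1.92% ± 0.103 of the tags in MC and 1.29% ± 0.186 in MA. Of the other 7 scaffolds, chr1_KZ114842v1_alt had a background of 14.4 to 39.3 times the genome-wide level. On chrUn_KN150486v1 the order was the reverse of that on chrUn_KN149687v1, with 2.18 to 3.06 times in MC and 5.16 to 15.4 times in MA. That scaffold held only 29 intervals over the 12 libraries, so each of its medians rests on few intervals.

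The 10 sequences with the largest mean share of the lists were 8 chrUn scaffolds, chrM and 1 alt scaffold, chr8_KZ115264v1_alt, which had 3 to 30 intervals per library. After chrUn_KN149687v1, with a mean of 0.0818% of a list, came chrM with 0.0268% and chrUn_KN150230v1 with 0.0188%. On chrUn_KN150230v1, with 9 to 50 intervals per library over 146.1 kb, the share was 0.0135% ± 0.00374 in MC and 0.0215% ± 0.00535 in MA. The other 7 (chrUn_KN150487v1, chrUn_KN150691v1, chrUn_KN150170v1, chrUn_KN150529v1, chr8_KZ115264v1_alt, chrUn_KN149790v1 and chrUn_KN150131v1) held 0.0122% to 0.0156% on average. The background of these 8, chrUn_KN150230v1 included, was at most 4.36 times the genome-wide level in any library, against 64.7 times or more on chrUn_KN149687v1.

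The mitochondrial genome gave 21 to 27 intervals per library, which covered 51.4% to 66.7% of the 16.447 kb between the first and the last of them. Their folds were low, with medians of 1.27 to 1.38, since the background under them was itself very high. It was 2982, 1455 and 2027 times the genome-wide level in MC_Het replicates 4, 5 and 6 and 1111 times in MC_Homo. In MA the lowest library had 4023 times, the median was 5446 times and the highest 6919 times, with no overlap between the cell types. The difference of means was 3574 (exact permutation p = 0.00202, adjusted p = 0.00299). In run 2 alone the difference was 2600 (exact permutation p = 0.0667). The highest background on chrM in each library, not the median given above, was used to estimate the share of mitochondrial tags. It was 3.44% ± 1.46 of tags in MC and 9.81% ± 1.69 in MA. The number of intervals did not rise in this way, at 22 to 27 in MC and 21 to 24 in MA. Of the complete list chrM held 0.0259% ± 0.0115 in MC and 0.0273% ± 0.00365 in MA (exact permutation p = 0.790). In lists of equal size it held 0.0409% in MC and 0.0374% in MA (exact permutation p = 0.0343, adjusted p = 0.115 over 87 sequences). Duplicate reads had been removed before calling, which limits the count on so small a sequence. More mitochondrial DNA per cell and more of it carried into the sorted preparation cannot be told apart.

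**Figure D3:**
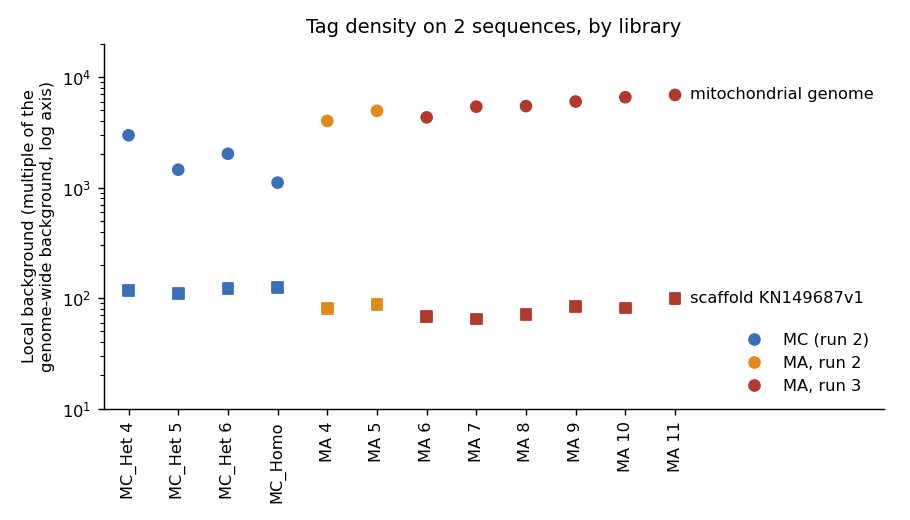
Median local background of the intervals on the mitochondrial genome (circles) and on chrUn_KN149687v1 (squares), as a multiple of the genome-wide background of the same library, on a log axis with 1 point per library. On the mitochondrial genome the MA libraries lie at 4023 to 6919 and the MC libraries at 1111 to 2982, while on the scaffold MC is above MA.

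The strongest interval of each of the 12 libraries, by p-value, lay on an unplaced scaffold, at chrUn_KN149855v1:2706-2868. Its fold was 94.6, 93.1 and 94.1 in MC_Het replicates 4, 5 and 6 and 93.6 in MC_Homo, and 94.2 to 96.8 in MA, with 2282 to 4775 tags at the summit. The fold could not have gone much higher, because with tags of 100 bp and the default local window of 10 kb of the caller, tags that all fall at 1 place give a ratio of at most 100. The nearly equal folds are therefore no measure of equal accessibility. The next 4 regions by mean rank among those in all 12 lists were on chrUn_KN149687v1, at 53810-54081, 108433-109102, 14321-14701 and 17431-17796, with folds of 13.5 to 29.2. Genes at these positions are not named, because an annotation of GRCz11 was not used here.

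Sharing between libraries was compared in lists cut to the 60523 strongest intervals of each library. Overlap was the Jaccard index, the bp shared by 2 lists as a percentage of the bp in either. On alternate scaffolds the 6 MC pairs overlapped by 49.5% ± 3.68 and the 28 MA pairs by 34.7% ± 5.03. On the chromosomes the order was the other way round, with 32.0% ± 4.14 for MC pairs and 42.6% ± 6.01 for MA pairs. Every one of the 6 MC pairs overlapped more on alternate scaffolds than on the chromosomes, and this held for 0 of the 28 MA pairs. The gap between MC pairs and MA pairs was 25.4 points larger on alternate scaffolds than on the chromosomes (exact permutation of library labels, p = 0.00202, adjusted p = 0.00299). It was 24.9 points without the intervals of 119 to 121 bp, and 22.6 points in run 2 alone, where the exact permutation p was 0.0667. Run 2 held every MC pair but only the MA pair of replicates 4 and 5. The other MA pairs either crossed the runs or lay within run 3 (MA replicates 6 to 11). Pairs within run 3 overlapped by 28.5% to 45.1% on alternate scaffolds. Of these, only the pair of replicates 6 and 7 lay above 44.78%, the lowest MC pair. On alternate scaffolds the MA pair of run 2 overlapped by 44.75%, just below the MC range of 44.78% to 54.16%. On the chromosomes it overlapped by 49.9%, above the MC range of 26.4% to 37.4%. The gap in run 2 alone thus came mostly from the chromosomes. On unplaced scaffolds MC pairs overlapped by 42.9% ± 4.11 and MA pairs by 43.3% ± 5.51, and the gap between them differed from that on the chromosomes by 10.2 points (exact permutation p = 0.00202, adjusted p = 0.00299).

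Pairs of 1 MC and 1 MA library shared less. The 32 mixed pairs overlapped by 22.5% ± 7.04 on alt, 27.4% ± 4.64 on chrUn and 20.4% ± 4.63 on the chromosomes. Mixed pairs with MA replicates 6 to 11 also crossed runs. On alt they overlapped by 13.5% to 26.9%, and mixed pairs within run 2 by 26.5% to 38.3%. MA pairs across the runs overlapped by 26.7% to 34.1% there. The gaps that follow over all libraries therefore mix cell type and run. Pairs of the same cell type exceeded mixed pairs by 14.8 points on alt, 15.7 on chrUn and 20.3 on the chromosomes (exact permutation p = 0.00202 for each). Over all sequences off the chromosomes the separation was smaller than on the chromosomes (difference -5.41 points, exact permutation p = 0.00202). In run 2 alone it was 4.65 points larger (exact permutation p = 0.133).

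**Figure D4:**
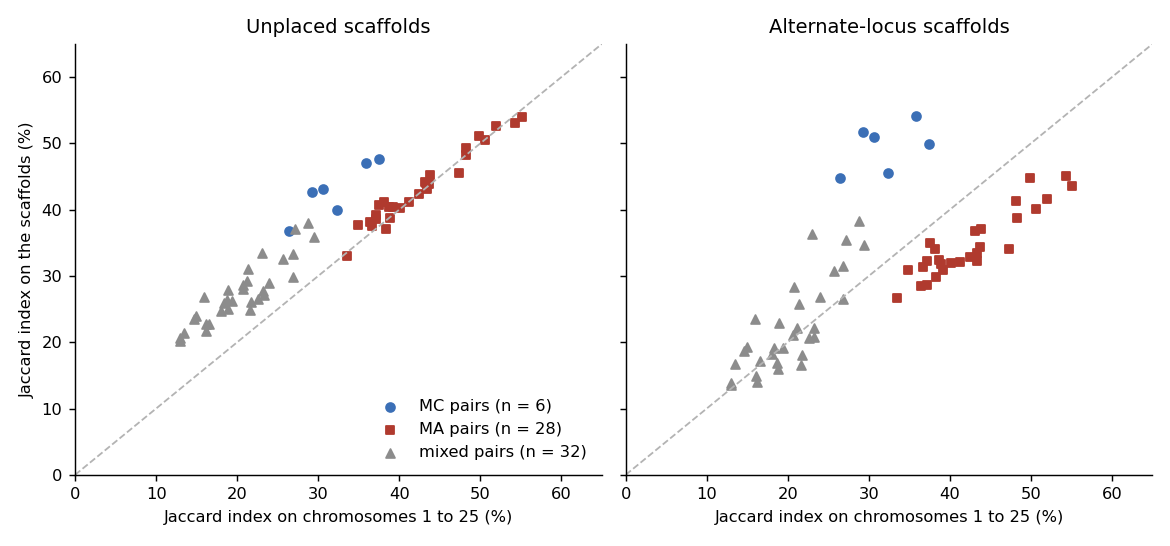
Jaccard overlap of each of the 66 library pairs on unplaced scaffolds (left) and alternate scaffolds (right), in percent, against the overlap of the same pair on chromosomes 1 to 25, with the dashed line at equality. On alternate scaffolds the 6 MC pairs lie above the line and the 28 MA pairs below it.

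Regions were the union of the 12 lists of equal size, 8698 of them off the chromosomes. In all 12 libraries 445 were found (5.12%, against 4.30% on the chromosomes), 237 on alt, 194 on chrUn and 14 on chrM. Of these, 41 were on chrUn_KN149687v1. A single library held 3365 (38.7%, against 44.4%). Detection was tested per region with a two-sided Fisher exact test, adjusted over all 56065 regions of the genome that could reach significance, 2600 of them off the chromosomes. At these sample sizes only a region in every library of one cell type and none of the other passed (exact p = 0.00202, adjusted p = 0.0266).

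In MA, 118 such regions off the chromosomes were detected, 84 on alt and 34 on chrUn. They made up 4.54% of the 2600 tested, below the 6.58% called among all regions tested. In MC, 27 were detected, 20 on alt and 7 on chrUn, a share of 1.04% beside a background of 1.01%. The MA share thus lay below, and the MC share near, that of all regions tested. Regions of MA were wide, at a median of 344.5 bp, and 0 of 118 were 119 to 121 bp, whereas those of MC had their median at 126 bp and 11 of 27 were that narrow. These widths do not compare the cell types on equal terms. A region of MA is the union of intervals from 8 libraries and a region of MC from 4, and a union over more lists is wider. On the chromosomes, too, the mean of the library medians was 160 bp in MA and 126 bp in MC. In the complete lists, where weaker intervals are kept, 0 regions passed in either direction, and 84 of the 118 had no interval in any MC library and 21 of the 27 had none in any MA library. The MC count was 143 at a −log10 q of at least 5. When 1 library was left out it was 27 to 60, and the MA count 121 to 162. These counts are not set against those of all regions, so a change particular to the scaffolds is not shown. The run moved with detection too, since 428 regions off the chromosomes (16.5% of those tested, against 11.2% on the chromosomes) were in all 6 libraries of run 2 and none of run 3, and 15 were the other way round.

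The MA region of best mean rank was chrUn_KN150016v1:10299-10559, with folds of 45.1, 24.9, 37.9, 38.8, 32.5, 19.7, 29.5 and 27.3 in MA replicates 4 to 11. In the complete lists it was also called in MC_Het replicates 5 and 6, at folds of 4.91 and 4.85. The next by rank were chr23_KZ115678v1_alt:65709-66048, with folds of 17.5 to 44.5 in MA and 3.47 in MC_Het replicate 5, and chr22_KZ114981v1_alt:237963-238221, with 20.6 to 35.2 in MA and 4.04 and 3.88 in MC_Het replicates 5 and 6. All 3 were therefore low rather than absent in some MC libraries. The region chrUn_KN149687v1:92686-92951 had folds of 2.75 to 10.6 in MA, over the high background of that scaffold, and no interval in any complete MC list. The same held for chr19_KZ115589v1_alt:222659-222996 (12.5 to 44.6 in MA), chr10_KZ115324v1_alt:105889-106286 (11.8 to 32.8), chrUn_KN150078v1:7594-8514 (7.66 to 25.7), chr23_KZ115674v1_alt:163033-163327 (6.86 to 45.7) and chr20_KZ115604v1_alt:258567-258859 (8.47 to 44.4). The last of the 10, chr18_KZ115543v1_alt:180510-181074, had folds of 16.1 to 41.2 in MA and 4.36 in MC_Het replicate 6.

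Of the MC regions, the best by mean rank was chr6_KZ115186v1_alt:30693-30812, with folds of 18.6, 31.8 and 10.2 in MC_Het replicates 4, 5 and 6 and 12.8 in MC_Homo, from 32, 109, 20 and 20 tags. Next were chr20_KZ115611v1_alt:559430-559548 (6.70 to 16.0), chr12_KZ115373v1_alt:180417-180535 (7.92 to 12.1) and chr6_KZ115177v1_alt:239961-240085 (6.30 to 17.0). Each was 119 to 125 bp wide and had no interval in any MA library. On chrUn_KN149687v1, which also held an MA region, the interval at 37347-37480 had folds of 2.12 to 2.26 in MC. Of the other 5, chr17_KZ115535v1_alt:386906-387141 was also called in 3 complete MA lists, at folds of 4.64 to 4.90, below the 5.48 to 13.9 of MC.

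The share of each sequence in the lists of equal size was tested over 87 sequences with a mean of at least 5 intervals, 62 of them off the chromosomes. The share was higher in MA for 8 sequences, which is 9.20% of those tested, and higher in MC for 3, or 3.45%. All 11 were scaffolds, 8 alt and 3 chrUn, and 0 of the 25 chromosomes passed (exact permutation tests, adjusted p = 0.0293 to 0.0479, with 4 chromosomes higher in MA and 2 higher in MC at an unadjusted p under 0.05). On chr2_KZ115043v1_alt the MC libraries had 2, 5 and 3 intervals in MC_Het and 3 in MC_Homo, and MA had 7 to 16. On chr18_KZ114960v1_alt they had 2, 0, 2 and 0, against 6 to 13 in MA. On chrUn_KN150127v1 the order was reversed, with 14, 16 and 12 in MC_Het and 11 in MC_Homo, against 4 to 10 in MA. The other sequences higher in MA were chr19_KZ115589v1_alt, chr20_KZ115602v1_alt, chr23_KZ115698v1_alt, chr4_KZ114856v1_alt, chr9_KZ114904v1_alt and chrUn_KN149893v1, and those higher in MC were chr25_KZ115740v1_alt and chrUn_KN150158v1. These counts are small, and 0 sequences passed when any 1 of 8 libraries was left out (each MC library and MA replicates 4, 6, 7 and 9).

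Each alternate scaffold is named for a chromosome, so its intervals could be set against that chromosome in the same library. The number of alt intervals per 100 on the chromosome was higher on average in MA for 25 of 25 chromosomes in the complete lists. This depended on the lists used. It held for 11 of 25 in lists of equal size and for 17 of 25 in those of run 2 alone. At a −log10 q of at least 5 it held for 8 of 25, and without MC_Het replicate 5, the longest list, for 20 of 25. Lists of equal size keep the strongest intervals, so length and strength changed together, and which of them mattered was not tested. In the complete lists the difference passed for chromosomes 10 and 19 (8% of the 25; exact permutation p = 0.00202, adjusted p = 0.0253 over the 25), and for 0 chromosomes in the direction of MC, by adjusted or unadjusted p. How many passed depended on the setting. The count was 22 without the intervals of 119 to 121 bp, 0 in lists of equal size, 0 at the stricter −log10 q, and 0 to 8 when 1 library was left out, so these 2 chromosomes are not shown to be particular. Chromosome 19, with 9 alternate scaffolds, had the lowest rate. It had 0.246, 0.133 and 0.199 alt intervals per 100 in MC_Het replicates 4, 5 and 6 and 0.387 in MC_Homo. In MA the rate was 1.31, 0.528, 1.02, 0.956, 0.916, 0.857, 0.779 and 0.613 in replicates 4 to 11, so every MA library lay above every MC library. The mean was 0.241 ± 0.108 in MC and 0.872 ± 0.244 in MA. In counts, the MC libraries had 9, 16, 8 and 10 intervals on these scaffolds and the MA libraries 21 to 82. The rise was not shared by all 9, since chr19_KZ115594v1_alt had 2 intervals in each MC library and 0 to 2 in MA, while chr19_KZ115593v1_alt had at most 1 in MC and 3 to 11 in MA. In lists of equal size the difference for chromosome 19 was 0.663 (exact permutation p = 0.00404, not passing after adjustment), and the difference for chromosome 10 was 0.573 (exact permutation p = 0.129).

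**Figure D5:**
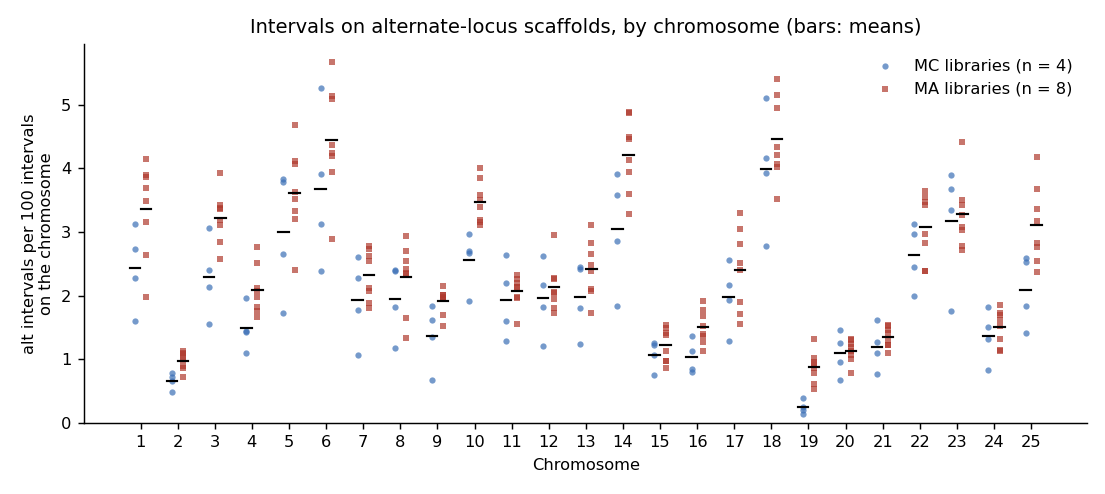
Intervals on the alternate scaffolds named for each chromosome per 100 intervals on that chromosome in the complete lists, in MC (n = 4) and MA (n = 8), with 1 point per library and black bars at the means. Chromosome 19 has the lowest rate, and there and on chromosome 10 the MC and MA libraries do not overlap.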

How the data were processed

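ATAC-seq libraries of 4 MC and 8 MA samples were used, grouped and numbered from the sample labels. Peak names inside the files carry other library names than the sample titles and were not used, so each file was assigned as deposited. According to the methods of the study, the authors trimmed adapters with CutAdapt, aligned reads with BWA at default parameters to GRCz11 (danRer11), kept proper pairs with a mapping quality over 30, removed duplicates, and called peaks in each library with MACS2 (effective genome 1e+09 bp, shift -50 bp, extension 100 bp, duplicate limit 999). No q threshold is stated, but the lowest −log10 q in each list was 1.30 to 1.31, next to a q of 0.05, the default of the tool. Tool versions, and whether BWA was told which scaffolds are alternates, are not given in the sources used here. The local window of 10 kb is the default of MACS2. The authors deposited, per summit, a fold enrichment (a ratio to the local background) and the −log10 of its p-value and q-value. Lines sharing start and end were collapsed to the strongest summit. From fold and −log10 p the pileup and background were solved (at least 99.97% of pileups within 0.05 of a whole number), and tags were the most frequent background times genome size over extension. Percent of tags on a sequence is a background multiple times the span from its first to its last interval, over the genome size. The multiple was the median for chrUn_KN149687v1 and the highest for chrM.

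Means were compared by two-sided exact permutation over 495 splits (15 within run 2), differences from the chromosomes by 4096 exact sign flips, both Benjamini-Hochberg adjusted over 34 tests, and regions by Fisher's exact test. Libraries are separate fish by the methods. Shares also carry counting error, which was not separated from the spread between libraries. Named contigs and regions followed a fixed rule: the 10 contigs with most intervals, the 5 regions of best rank in all lists, and up to 10 regions or contigs per direction that passed. Members, lists and tests were chosen with earlier results of these data known. The narrow share, the overlap within MC against within MA, the 2 background tests and the rates by chromosome were added after seeing the data. Scripts were tested on simulated data. The planned gene names, gene families and marker check were not run, since no annotation of GRCz11 was used here, so the labelled cell types were not checked. Python 3.11.15, numpy 2.4.6, pandas 2.3.3, scipy 1.17.1 and matplotlib 3.10.9 were used.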

Additional observations from a re-analysis of the deposited data

Results flagged for a closer look

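MC_Het replicate 5, the deepest library, stood apart from the other 3 MC libraries on alternate scaffolds: its median width there differed from that on its chromosomes by -22.0 bp, against -2 to 1 bp in the others, and its share of intervals over 2 times the genome-wide background differed by -1.30 percentage points, against -4.26 to -3.82. These were 2 of 34 groups of libraries examined, and chance gives about 1 in 20.

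The difference between scaffolds and chromosomes itself differed between MA and MC, by a test of that difference, in 13 cases. Over all sequences off the chromosomes it differed by -16.2 bp in median width, -0.31 in log2 fold and -10.7 points in the share of intervals of high background. On unplaced scaffolds the values were -11.9 bp, -0.17 and -5.58 points, and on alternate scaffolds -18.8 bp, -0.51 and -12.7 points, with -16.7 points in the share of intervals of 119 to 121 bp. For overlap between libraries, the separation of cell types differed by -5.41 points between all these sequences and the chromosomes, and the gap between MC pairs and MA pairs by 25.4 points on alt and 10.2 points on chrUn. The narrow share on unplaced scaffolds was tested in the same way and did not pass (0.327 points, exact permutation p = 0.562). The 13 cases are not independent, since the measures describe the same intervals and all sequences together include both kinds of scaffold.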

How the results depend on the processing

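With 4 MC libraries, all of run 2, the run cannot be separated from the cell type outside that run, weak intervals depend on depth, and the treatment of reads that fitted several places is not known. Alternatives for the narrow share, the rates by chromosome, the gap of MC pairs and MA pairs and the 2 background multiples were chosen after seeing the data. The cause of the changes below was not tested, except that fewer libraries allow no smaller p. No result with an exact test over libraries that passed reversed when 1 library was left out.

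In run 2 alone (exact permutation p of 0.0667 or more between cell types, 0.0625 or more against the chromosomes) these fell short. MA minus MC was -0.0760 points for the chrUn share and 0.555 for the alt share. Contrasts with the chromosomes over all sequences were -8.83 bp, 0.32 in log2 fold and -0.736 points of high background, -1.25 bp on chrUn and -11.2 bp on alt. Their differences between cell types were -13.7 bp, -0.30 and -9.83 points over all, -7.13 bp, -0.13 and -5.52 points on chrUn, and -15.5 bp, -0.48, -11.4 points and -10.6 narrow points on alt. Same-type minus mixed overlap was 13.1 points off the chromosomes, 8.48 on them, 10.5 on chrUn and 16.1 on alt, off minus on reversed to 4.65, and the gap of MC and MA pairs was 22.6 on alt and 9.57 on chrUn. Background multiples differed by 2600 on chrM and -34.6 on chrUn_KN149687v1. Regions, sequences and chromosomes passing were 0 in each direction.

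The labels number 3 MC_Het and 3 MA libraries alike (4, 5 and 6), but these are different fish that share only a number. With the replicate block, where an exact test on 3 pairs cannot go below 0.25, values were -0.0312 (chrUn share), 0.803 (alt share), contrasts of -13.2 bp, 0.25 and -3.22 points over all and -4.08 bp and 4.05 points on chrUn, and differences between cell types of -14.3 bp, -0.33 and -11.1 points over all, -10.5 bp, -0.15 and -5.32 points on chrUn and -16.0 bp, -0.54, -13.3 points and -14.1 narrow points on alt.

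Without intervals of 119 to 121 bp the share over all rose to 0.685 points (exact permutation p = 0.00808), the high-background contrast over all was -3.17, the chrUn log2 fold contrast was -0.00418, 4 sequences passed in MA and 1 in MC, and 22 chromosomes passed for the alt rate. At a −log10 q of at least 5, the alt share reversed to -0.239 and that over all moved to -0.636, the log2 fold contrast was 0.0496 over all and -0.0483 on chrUn, the chrUn narrow contrast was -1.24 with a difference between cell types of 4.76, MC regions rose to 143, and 0 sequences and 0 chromosomes passed. In lists of equal size the share was -0.295 over all and 0.0124 on alt, the chrUn narrow contrast -0.0714, and 0 chromosomes passed (0.573 for chromosome 10). With 1 entry per summit, the alt share was 0.423, the high-background contrast over all -2.90, and on chrUn the width contrast was -4.46 bp, log2 fold -0.0203 and narrow -0.124. In percent of bp the share was -0.124 over all and 0.230 on alt, and thinned to the lowest depth it was 0.231 on alt. Without MC_Homo the chrUn share was -0.0958. With pileup in place of fold the chrUn contrast was 0.11. With background over 1.5 times it was 1.496 on chrUn, and over 3 times -0.592 over all. By intervals of 150 bp or more the chrUn width contrast was -1.998 points. In complete lists 0 regions passed in each direction and 13 sequences in MA, and in the 10000 strongest 14 and 17 regions, where the gap of pairs on chrUn was 3.62. With a minimum mean of 1 interval 0 sequences passed. The region counts given here are of regions off the chromosomes and are not set against those of all regions.

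Leaving out 1 library, the alt share ranged from 0.255 to 0.632 (not passing without MC_Het replicates 5 and 6 and MA replicates 4, 6, 7 and 8), the chrUn share from -0.214 to -0.0958 (not without MC_Homo) and the chrUn log2 fold contrast from -0.00497 to 0.0187. MC regions off the chromosomes ranged from 27 to 60 and MA regions from 121 to 162. Sequences passing ranged from 0 to 9 in MA and 0 to 4 in MC, and chromosomes passing for the alt rate from 0 to 8.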
